A study of Mus musculus with 6 samples.

Results

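The genes described here encode subunits of Kv2 potassium channels. They are the 7 rows of the table whose mouse Ensembl identifier belongs to Kcnb2, Kcns1, Kcns3, Kcng2, Kcng3, Kcng4 or Kcnv1, out of 54532 gene rows. RNA of whole dorsal root ganglia, which house the cell bodies of sensory neurons, was sequenced from C57BL/6 mice aged 8 weeks. In the Hdac2 conditional knockout (Hdac2 cKO, 3 libraries, genotype Adv-Cre+/hdac2-flop++), the Advillin promoter drives Cre in primary sensory neurons, where it acts on floxed alleles of the histone deacetylase gene Hdac2. The controls (called WT, 3 libraries, genotype hdac2-flop++) were littermates that carried the floxed alleles and no Cre. Both groups thus share the floxed Hdac2 alleles and differ in Cre itself as well as in the deletion. The sources used here do not say whether ganglia of several mice were pooled in a library, so p-values measure only the spread between libraries. In whole ganglia, fewer cells of a type and less RNA per cell cannot be told apart.

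Kv2 channels are delayed rectifiers: they open when a neuron is depolarised, let potassium leave the cell and so help to end the action potential and to limit repeated firing. Kcnb2 encodes a subunit of the pore, which is a tetramer. The Kcns, Kcng and Kcnv products are called silent, since they form no working channel by themselves, but they join Kv2 subunits in mixed tetramers and change when those open and close. In sensory ganglia, Kcns1 is known from large myelinated neurons and has been linked to pain after nerve injury.

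The members lie on 7 chromosomes (mm10), so none is a neighbour of another. Kcnb2 (ENSMUSG00000092083, chromosome 1, 15287254 to 15723750, plus strand) is the longest, with 15165 bases of annotated exon. Kcns1 (ENSMUSG00000040164) spans 164163619 to 164171113 on the minus strand of chromosome 2, and Kcns3 (ENSMUSG00000043673) spans 11090202 to 11151056 on the minus strand of chromosome 12. Kcng3 (ENSMUSG00000045053) spans 83585957 to 83631895 on the minus strand of chromosome 17, and Kcnv1 (ENSMUSG00000022342) spans 45106284 to 45114920 on the minus strand of chromosome 15. The places of Kcng2 and Kcng4 are given with their values.

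RefSeq promoters (GRCm38.p6) were matched for 4 members. The 250 bases before the start are shown for Kcng3, Kcns1 and Kcng4, because these range from the most CpG of the 4 to the fewest, while none of the genes separated the groups (values below). Kcng3 holds 41 CpG and 82.4% G or C, more CpG than 98.9% of promoters. Kcns1 holds 17 CpG and 63.2% G or C, and Kcng4 holds 4 CpG and 60.4% G or C, against medians of 6 CpG and 52.4% over 32851 promoters. Capitals mark the GC box GGGCGG, which Sp-family factors are known to bind, on either strand. The sequences run from 5′ to 3′ on the minus strand, from chr17:83631896-83632145 for Kcng3, chr2:164171114-164171363 for Kcns1 and chr8:119635681-119635930 for Kcng4.
Kcng3: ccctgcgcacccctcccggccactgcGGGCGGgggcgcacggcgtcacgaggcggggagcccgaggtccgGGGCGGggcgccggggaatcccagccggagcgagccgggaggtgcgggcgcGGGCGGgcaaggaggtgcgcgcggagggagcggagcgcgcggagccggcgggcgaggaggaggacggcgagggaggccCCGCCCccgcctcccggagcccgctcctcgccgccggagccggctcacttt
Kcns1: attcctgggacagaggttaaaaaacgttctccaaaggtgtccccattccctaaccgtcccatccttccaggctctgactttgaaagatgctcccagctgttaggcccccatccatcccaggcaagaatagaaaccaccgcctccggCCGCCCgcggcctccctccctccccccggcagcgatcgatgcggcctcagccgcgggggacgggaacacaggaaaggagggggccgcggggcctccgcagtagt
Kcng4: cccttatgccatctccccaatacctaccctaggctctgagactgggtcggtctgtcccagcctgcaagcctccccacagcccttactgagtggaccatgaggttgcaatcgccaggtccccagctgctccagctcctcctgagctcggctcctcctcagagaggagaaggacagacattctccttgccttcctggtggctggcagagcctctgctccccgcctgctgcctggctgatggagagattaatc
Kcng3 holds 4 GC boxes, Kcns1 holds 1 and Kcng4 none, and 32.7% of all promoters hold at least 1 in the same window. The core TGACG of the cyclic AMP response element was found at 1 place in Kcng3 and not in Kcns1 or Kcng4, against 17.8% of promoters. The fragment TTCAGCACC of the RE1 element was in none of them, against 0.3% of promoters. These are matches of letters in 1 window, with both strands searched.

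Values below are deposited gene read counts divided by 1 size factor per library, called normalised read counts, and the 3 values of a group are given in the order of library numbers 1, 2 and 3. The libraries held 18943595 to 42070531 reads assigned to genes. Of the 18410 genes tested (those at 10 or more in at least 3 libraries), 1079 were at 0 in WT 3 and 39 to 119 in each other library. WT 3 thus stands apart. Values without it are given for the members, the lists of Kv2 partners and other potassium channel genes, and the genes it moves most. No such values are given for the marker lists of cell types. WT 2 had the fewest reads, and 42.4% of its counts between 1 and 20 were even, against 60.2 to 64.4% in the others. The sexes were mixed, with 4 Y-linked genes (Ddx3y, Eif2s3y, Kdm5d and Uty) summing to 3650 in WT 2, 5698 in WT 3, 3993 in Hdac2 cKO 2 and no more than 7.06 in the other libraries. Hdac2 gave 2816, 1715 and 3498 in the WT libraries and 499.1, 371.5 and 535.0 in the knockout libraries, as the labels have it. Nerve cells were plainly present: all 9 pan-neuronal markers were above 0 in every library and summed to 242099 to 399301 in WT and 251075 to 324111 in Hdac2 cKO.

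No member passed the test between Hdac2 cKO and WT, and for none of the 7 did the groups separate. The table as a whole gave the same: limma called 0 of 18410 genes at an adjusted p of 0.05 (0.0%), with 341 (1.85%) at an unadjusted p under 0.05, of which 0 were members. Groups did not overlap for 8.54% of all genes tested. Hdac2 itself was not called by limma either (log2 fold change -2.47; limma adjusted p = 0.927), although its groups did not overlap. A gene left uncalled here is thus not shown to be unchanged. With the replicate number as a block limma called 0.0% and DESeq2 59 genes (0.32%), again without a member. By the count-based tools, edgeR with TMM or RLE scaling called 0 genes, and DESeq2 called 23 (0.125%), none of them a member. Fold changes are on the scale of log2 (value + 1), with WT subtracted from Hdac2 cKO, and for the members ran from -0.43 for Kcng2 to 0.88 for Kcnb2. The median was 0.12, against 0.06 over all genes tested, and 5 of 7 were above 0, against 55.3% of all genes. Single libraries moved the members' median widely: it was 0.017 without WT 3, 0.075 without Hdac2 cKO 2, 0.21 without Hdac2 cKO 3 and 0.32 without WT 1.

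Libraries with the same number deviated together across the table (correlations of 0.401, 0.147 and 0.422) and were taken as pairs. The labels state no pairing, so it rests on these same values, and WT 1 correlated more with Hdac2 cKO 2 (0.342) than WT 2 did (0.147). Number 3 joins libraries unlike in sex, with the Y-linked genes named above summing to 5698 in WT 3 and 0 in Hdac2 cKO 3. Within pairs, Kcnb2, Kcng3 and Kcnv1 were higher in the knockout library in 3 of 3, and no member was lower in 3 of 3. That is 42.9% of the members, against 18.2% of all genes tested that were higher in 3 of 3. Kcns1 and Kcns3 were higher in 2 pairs, and Kcng2 and Kcng4 in 1. With the number as a block, limma gave an adjusted p of 0.674 for each of Kcnb2, Kcng3 and Kcnv1.

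**Figure D1:**
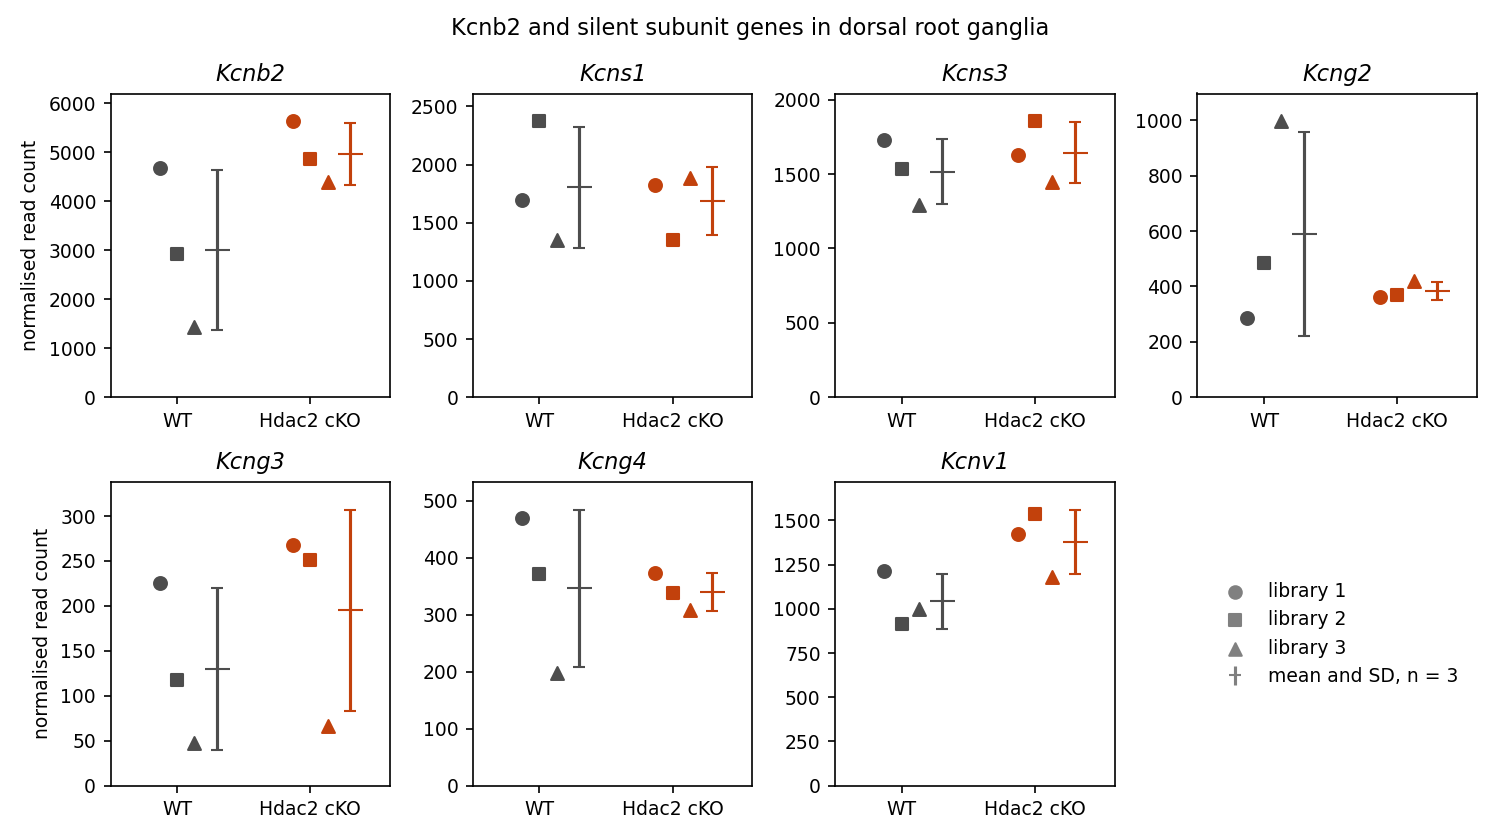
Normalised read counts (y axis, from 0) of the 7 genes in each library, by group. Circles, squares and triangles are libraries 1, 2 and 3, and bars are the mean and SD of 3. The groups overlap in every panel, and WT 3 (dark triangle) is lowest for Kcnb2, Kcns3, Kcng3 and Kcng4 and highest for Kcng2.

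Kcnb2, a pore-forming subunit, had the largest difference of the members. It gave 4673, 2912 and 1428 normalised read counts in the WT libraries and 5632, 4866 and 4392 in the knockout libraries. WT 1 was within the knockout range, and WT 3 was far below all the others. The means were 3004 ± 1625 (SD, n = 3) in WT and 4963 ± 626 (SD, n = 3) in Hdac2 cKO. The log2 fold change was 0.88 (SE 0.41), with a 95% confidence interval from -0.09 to 1.84 (limma adjusted p = 0.927). Fold changes from 0.94 to 3.58 thus lie within the interval, which includes a rise of some size as well as no change. Leaving out WT 3 gave 0.42, and leaving out WT 1 gave 1.28. With gene length correction, an alternative chosen after seeing the data, it was 0.67: genes with 8 kb or more of exon had a median deviation of -0.25 (log2) in WT 3, while Kcnb2 deviated there by -1.35. Weighting the libraries by quality in limma (array weights), also chosen after seeing the data, called Kcnb2 at 0.74 (limma adjusted p = 0.0443). Those weights set WT 1, 2 and 3 at 0.670, 4.17 and 0.101, so that the WT mean rests on WT 2, and they called 567 genes (3.08%). Adjusted p for Kcnb2 under all alternatives ran from that value to 1.0.

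Kcns1 and Kcns3, whose products modify Kv2 gating, differed little between the group means. Kcns1 gave 1694, 2373 and 1349 normalised read counts in the WT libraries and 1823, 1348 and 1881 in the knockout libraries. The 2 groups covered much the same range, and the highest value was in WT 2. The means were 1806 ± 521 and 1684 ± 292 (SD, n = 3 each). The log2 fold change of Kcns1 was -0.08 (SE 0.27; 95% interval -0.71 to 0.56; limma adjusted p = 0.962). Its sign turned without WT 2 (0.14) or without Hdac2 cKO 2 (0.08), so no direction can be given. Without WT 3 it was -0.27, and with array weights -0.54.

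Kcns3 gave 1726, 1531 and 1290 in the WT libraries and 1629, 1856 and 1446 in the knockout libraries. Values of the groups interleaved. The means were 1515 ± 218 and 1644 ± 205 (SD, n = 3 each). The log2 fold change was 0.12 (SE 0.21), and its 95% interval from -0.37 to 0.61 was the narrowest of the members, leaving fold changes from 0.77 to 1.53 possible (limma adjusted p = 0.934). Without WT 3 it was 0.01. Kcns2, outside the 7, stood between 98.3 and 177.8 in WT and between 125.2 and 170.0 in Hdac2 cKO.

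The Kcng genes had lower counts. Kcng2 (ENSMUSG00000059852, chromosome 18, 80294546 to 80364254, minus strand) was the one member with its highest value in WT 3. It gave 285.9, 485.4 and 997.6 normalised read counts in the WT libraries and 363.7, 367.6 and 419.6 in the knockout libraries. The knockout values lay close together inside the WT range. The log2 fold change of Kcng2 was -0.43 (SE 0.44; 95% interval -1.47 to 0.60; limma adjusted p = 0.927). It was 0.04 without WT 3 and -0.86 without WT 1. Of the 7, only Kcng2 shares annotated exon with another gene, 272 bases with D330025C20Rik on the opposite strand, which stood at 10.4 to 11.5 in WT and 2.95 to 4.90 in Hdac2 cKO. As the strand setting is not given, reads in the shared exon cannot be told apart.

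Kcng3 gave 225.9, 117.6 and 47.0 in the WT libraries and 267.7, 251.6 and 66.4 in the knockout libraries. Both libraries numbered 3 were far below their groups, and the groups overlapped across most of their range, although each knockout value was above the WT value of its number. The log2 fold change was 0.61 (SE 0.74; 95% interval -1.12 to 2.34; limma adjusted p = 0.927), the widest interval of the members. It was 0.02 without WT 3, 1.14 without WT 1, 1.26 without Hdac2 cKO 3, and 0.31 and 0.26 without Hdac2 cKO 2 and 1. Macrophage markers followed the same libraries: their 7 genes summed to 9170, 3426 and 1816 in the WT libraries and 7272, 9038 and 2473 in the knockout libraries, with Cd68 at 0 in WT 3. Their part in the Kcng3 values was not tested.

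Kcng4 (ENSMUSG00000045246, chromosome 8, 119623854 to 119635680, minus strand) gave 470.3, 372.2 and 198.3 in the WT libraries and 373.8, 338.1 and 308.4 in the knockout libraries. All knockout values lay inside the WT range. The means were 347 ± 138 and 340 ± 32.7 (SD, n = 3 each), and the log2 fold change was 0.06 (SE 0.36; 95% interval -0.78 to 0.89; limma adjusted p = 0.978). It was -0.30 without WT 3 and 0.32 without WT 1, and below 0 by edgeR and DESeq2, so no direction can be given. Kcng1, outside the 7, gave 81.2, 50.6 and 0 in the WT libraries and 89.9, 92.4 and 59.4 in the knockout libraries. A count of 0 in WT 3 allows up to 3 reads, or 3.07 normalised read counts. The fitted change of Kcng1 depends on that 0 and on the pseudocount, and without WT 3 it was 0.30.

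Kcnv1, the third kind of silent subunit, gave 1216, 912.7 and 997.6 normalised read counts in the WT libraries and 1423, 1535 and 1178 in the knockout libraries. The groups overlapped only through WT 1 and Hdac2 cKO 3. The means were 1042 ± 156 and 1379 ± 182 (SD, n = 3 each). The log2 fold change was 0.41 (SE 0.22; 95% interval -0.10 to 0.91; limma adjusted p = 0.927). When single libraries were left out it ranged from 0.32 to 0.52, and it was 0.38 without WT 3. Array weights, chosen after seeing the data, called it at 0.63 (limma adjusted p = 0.0408), against 3.08% of all genes called so. Among the WT libraries they weigh WT 2 most (4.17). Kcnv1 was lowest in WT 2, and without WT 2 its log2 fold change was 0.32. Kcnv2 was barely detected, at 0 to 1.76 in WT and 0 to 9.83 in Hdac2 cKO.

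**Figure D2:**
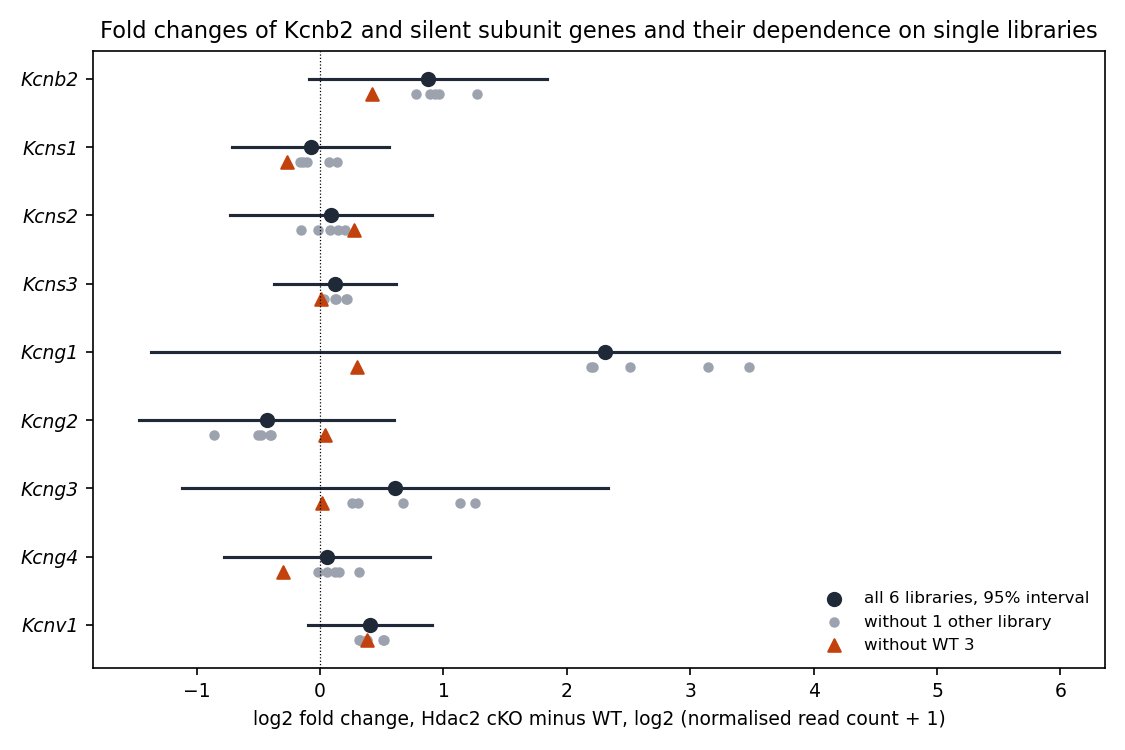
Log2 fold changes (x axis, Hdac2 cKO minus WT) of Kcnb2 and the Kcns, Kcng and Kcnv genes tested. Black points and lines are the value over all 6 libraries and its 95% interval, grey points leave out 1 other library, and orange triangles leave out WT 3. Every interval includes 0, and leaving out WT 3 takes Kcnb2 from 0.88 to 0.42 and Kcng3 from 0.61 to 0.02. The value of Kcng1 depends on the 0 in WT 3 and on the pseudocount.

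WT 3 was the lowest of the 6 libraries for 4 of 7 members (57.1%), against 40.7% of all genes tested, and the highest for 1, against 30.5%. Low values of single genes there are thus common across the table. Of the marker lists, those of macrophages (values above) and of non-peptidergic and itch neurons had WT 3 lowest too. The 12 genes of the latter list summed to 20230, 17213 and 11776 in the WT libraries and 23143, 23389 and 25738 in the knockout libraries (11 of 12 positive). These sums did not overlap between groups, and the median log2 fold change was 1.08. That median is not given without WT 3, where the list had a median deviation of -0.75 (log2). The deviation was 0.049 in WT 1 and -0.21 in WT 2. Single genes were higher in the knockout without overlap for 5 of the 12, against 4.63% of all genes. Their part in the members' values was not tested. Lpar5 of that list was at 0 in WT 3. Large-diameter neuron markers, from the cells where Kcns1 is known, summed to 193404 to 238475 in WT and 187345 to 269083 in Hdac2 cKO. Their 12 genes split evenly in direction, with 6 above 0 and 6 below. Of the 12, 2 were higher and 3 lower without overlap between groups, against 8.54% of all genes in either direction. Their log2 fold changes ran from -2.55 to 0.48. Pvalb of this list is also a gene of fast skeletal muscle, and the part of muscle in these values was not tested. Peptidergic markers summed to 53195 to 89516 and 59139 to 72460, and 4 of 5 C-low-threshold mechanoreceptor markers, those found in the table, to 7311 to 13242 and 7417 to 8086.

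Summed markers of skeletal muscle and of myelinating Schwann cells also separated the groups, while those of satellite glia and spinal cord overlapped. Skeletal muscle genes summed to 1785 to 9657 in WT and 129 to 1203 in Hdac2 cKO, with all 10 tested genes lower, and myelinating Schwann cell genes to 235391 to 353559 and 130312 to 218433, with 8 of 8 lower. Satellite glia genes summed to 137088 to 219775 and 112560 to 137880, with 3 of 6 lower. Spinal cord markers summed to 48.5 to 163.5 and 35.4 to 61.9, with Olig2 and Opalin at 0 in 5 libraries each. Avil, the Cre driver gene and also on the pan-neuronal list, stood at 11996 to 17149 in WT and 8201 to 10125 in Hdac2 cKO. Its groups did not overlap, as for 8.54% of all genes in either direction. As the groups differ in Cre, an effect of the driver on Avil and fewer neurons cannot be told apart. The part of the cell types listed here in the members' values was not tested.

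Levels were compared between genes per kilobase of annotated exon, which leaves out differences in which exons are used. Kcns1 and Kcns3 were above Kcnb2 in every library. Kcns1 stood at 666 ± 192 per kilobase in WT and 621 ± 108 in Hdac2 cKO, and Kcns3 at 479 ± 69.0 and 519 ± 64.8 (SD, n = 3 each). Kcnv1 followed at 227 ± 34.1 and 301 ± 39.8, Kcnb2 at 198 ± 107 and 327 ± 41.3, and Kcng2 at 197 ± 123 and 128 ± 10.4. Kcng4 stood at 91.2 ± 36.2 and 89.4 ± 8.60, and Kcng3 was lowest of the 7 at 38.8 ± 26.8 and 58.2 ± 33.3. By WT level per kilobase, Kcns1 lay above 87.0% of all genes tested and Kcng3 above 31.7%.

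The order held in part. Kcns1 was above Kcns3 in 5 of 6 libraries, the exception being Hdac2 cKO 2. Whether these neighbours differ in level was not tested. Kcnv1 and Kcnb2 changed places, with Kcnv1 higher in 3 of 6 libraries. Kcng4 was above Kcng3 in all 6 libraries. Kcng2 took the third place among the members in WT 3 alone and the fifth or sixth in the others.

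**Figure D3:**
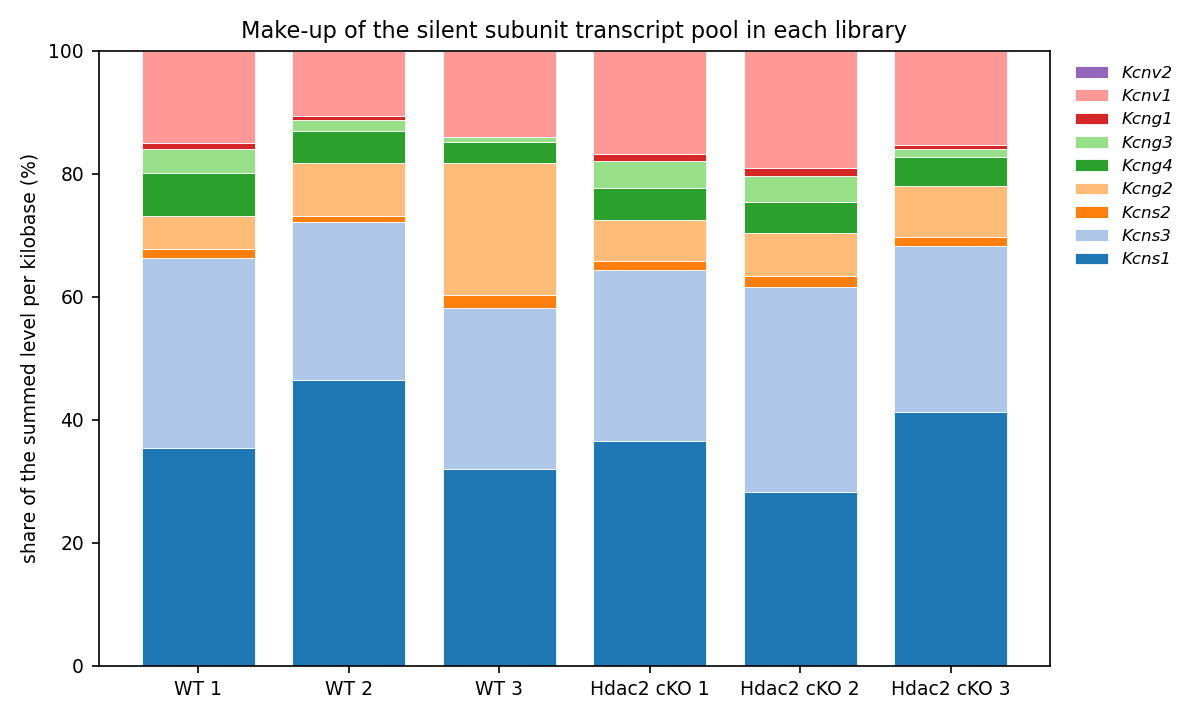
Share (y axis, percent) of each gene in the summed level per kilobase of the 9 silent genes (Kcns, Kcng and Kcnv), by library. Kcns1 and Kcns3 at the bottom make up most of each bar, and Kcng2 takes 21.5% in WT 3 against 5.41 to 8.63% elsewhere.

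Shares within a library do not depend on the size factor. Of the summed level of the 9 silent genes, Kcns genes held 67.7, 73.1 and 60.3% in the WT libraries and 65.8, 63.4 and 69.6% in the knockout libraries. They were thus the bulk of the summed level of these 9 genes in every library, and the groups overlapped. Silent subunit genes outside Kcns, Kcng and Kcnv were not read. Kcng genes held 15.1 to 17.5% in 5 libraries and 25.7% in WT 3, where Kcng2 was high. Kcnv1 held 15.003, 10.6 and 14.0% in the WT libraries and 16.8, 19.0 and 15.3% in the knockout libraries. It was the one member whose share did not overlap between groups, although WT 1 and Hdac2 cKO 3 were close. Relative to the same sum, 4.37% of all other tested genes were higher without overlap. The log2 difference of the Kcnv1 share was 0.38, and from 0.23 to 0.48 when single libraries were left out. These shares were looked at after the values were seen and are a description with no test.

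Of the 6 silent members, only Kcng4 had a ratio to Kcnb2 without overlap between groups. Its level per kilobase relative to Kcnb2 was 0.401, 0.509 and 0.553 in the WT libraries and 0.264, 0.277 and 0.280 in the knockout libraries. All knockout values were lower and close together. The log2 difference was -0.82, and from -0.96 to -0.72 when single libraries were left out. Since Kcnb2 itself was low in WT 2 and WT 3, many genes did the same: 21.4% of all other tested genes had a lower ratio to Kcnb2 without overlap. A two-sided exact permutation test of the log2 ratios, added after the values were seen, gave p = 0.1 for Kcng4, the smallest this test allows with 3 against 3, and 0.2 to 0.9 for the other 5. Adjusted over the 6 ratios, p was 0.4 for Kcng4, and none passed.

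The ratios of the other silent members overlapped between groups. Within number pairs, those of Kcns1, Kcns3 and Kcng4 were lower in the knockout library in 3 of 3, as for 67.6% of all other tested genes. Kcns1 relative to Kcnb2 was 2.03, 4.56 and 5.28 in the WT libraries and 1.81, 1.55 and 2.39 in the knockout libraries. Only WT 1 lay within the knockout range. Kcns3 relative to Kcnb2 was 1.77, 2.52 and 4.33 in the WT libraries and 1.39, 1.83 and 1.58 in the knockout libraries. Kcng2 relative to Kcnb2 covered the widest range, from 0.310 to 3.54 in WT and from 0.328 to 0.485 in Hdac2 cKO. Kcng3 relative to Kcnb2 was 0.149 to 0.218 in WT and 0.0684 to 0.234 in Hdac2 cKO, with Hdac2 cKO 3 lowest, and Kcnv1 was 0.860 to 2.31 and 0.835 to 1.04.

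**Figure D4:**
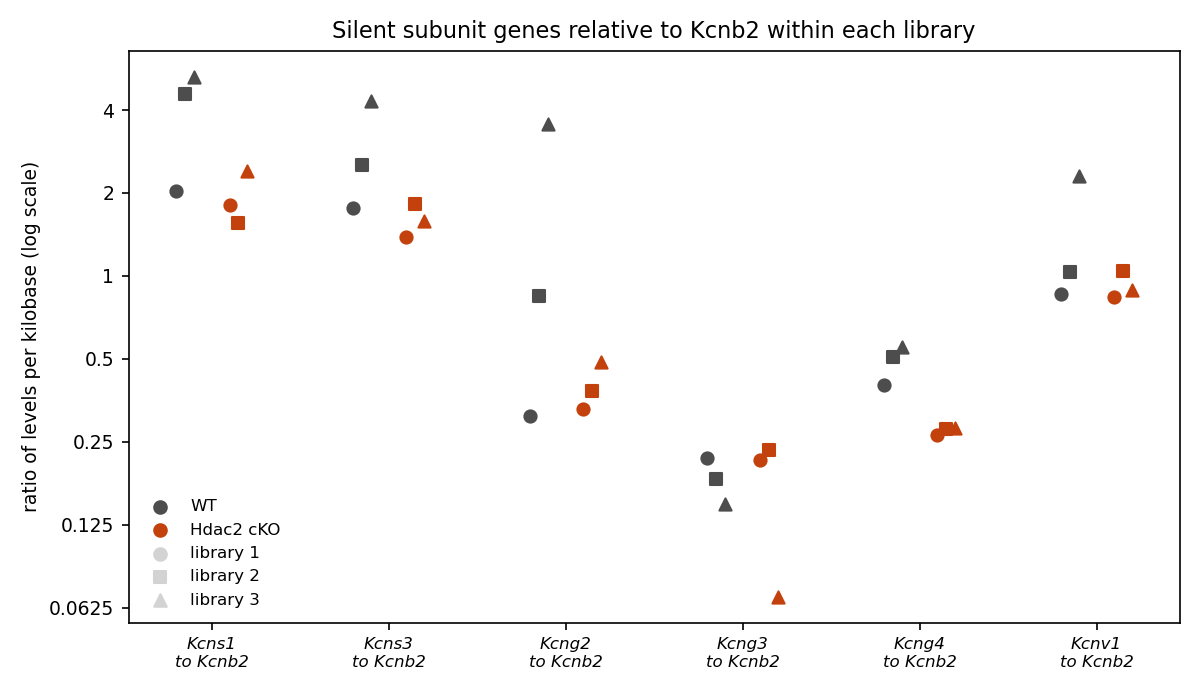
Ratios of levels per kilobase within each library (y axis, log scale) for the 6 silent members relative to Kcnb2. Dark points are WT and orange points Hdac2 cKO, with circles, squares and triangles for libraries 1, 2 and 3. Kcng4 to Kcnb2 lies at 0.401 to 0.553 in WT and 0.264 to 0.280 in Hdac2 cKO, while the groups overlap for the other 5 genes.

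Proteins that bind or modify Kv2 channels were read from a list of 17, of which 15 could be tested. By limma 0 passed in either direction, 12 of 15 were above 0, and the median log2 fold change was 0.12. That median was 0.025 without WT 3, 0.0645 without WT 1, 0.034 without Hdac2 cKO 3, 0.18 without Hdac2 cKO 2 and -0.010 without both libraries numbered 3. Stx1a, the plasma membrane syntaxin that binds Kv2 channels, gave 1065, 1225 and 1198 in the WT libraries and 1410, 1268 and 1362 in the knockout libraries. Its groups did not overlap, as for 4.63% of all genes in that direction, but the log2 difference was only 0.21 (SE 0.19), with a limma adjusted p = 0.927. Ppp3r1, the regulatory subunit of calcineurin, which dephosphorylates Kv2 channels, differed by 0.31 (log2, SE 0.25), and Cdk5, a neuronal kinase, by -0.39 (log2, SE 0.33). Leaving out single libraries, Ppp3r1 ranged from 0.13 (without WT 3) to 0.50 (without WT 2), and it was 0.0050 without both libraries numbered 3. Cdk5 ranged from -0.65 (without WT 1) to -0.11 (without WT 3). These 3 had the smallest p of the list and are given as values only.

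Of 28 other pore-forming genes of voltage-gated potassium channels (Kcna, Kcnc, Kcnd, Kcnq and Kcnh), 25 could be tested. By limma 0 passed in either direction, 16 were above 0 and 9 below, and the median log2 fold change was 0.29. It was 0.15 without WT 3, 0.16 over the genes at 10 or more in all 6 libraries, and 0.083 with gene length correction. Members had a median of 0.12, and of 0.15 with gene length correction, so the order of the 2 medians turned with that setting. Kcnh7, Kcnc2 and Kcnq5 had the smallest p of these and are likewise given as values. Kcnh7, of the ERG family, gave 3743, 2393 and 1601 in the WT libraries and 4813, 4502 and 4059 in the knockout libraries, without overlap (log2 fold change 0.87, SE 0.32; limma adjusted p = 0.927). As for Kcnb2, the lowest value was in WT 3, and without it the difference was 0.57. Kcnc2 differed by 0.43 (log2, SE 0.24), or by 0.26 without WT 2, and Kcnq5, an M-current subunit, by 0.74 (log2, SE 0.46), or by 0.20 without WT 3.

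The genes most like each member across the 6 libraries were found by the root-mean-square difference of their log2 values, each centred on its own mean. They were picked as the nearest of 18410 genes over 6 points, so close matches are a description. Nearest to Kcnb2 were Nos1, neuronal nitric oxide synthase (0.08 log2 units), and Clec1a (0.08). Nos1 gave 1749, 1126 and 566.2 in the WT libraries and 2376, 1965 and 1942 in the knockout libraries. Kcns1 was nearest to Pik3r2 and to Kcnh2, another potassium channel gene (0.07 each). Kcns3, whose values varied least, was nearest to Rack1 and Pkia (0.03 each). Kcng2 was nearest to Gm12184 (0.06) and Ddah2 (0.07), both highest in WT 3. Kcng3 was nearest to Faxc and to C1qb, a complement gene of macrophages (0.11 each). Kcng4 was nearest to Fancb (0.05) and Pced1a (0.06), and Kcnv1 to Ptbp3 (0.05) and Vwa5a (0.06).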

How the data were processed

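Columns of the deposited table were assigned to the 6 dorsal root ganglion libraries by name, and groups came from the sample titles. Per the submitters' processing notes, the authors worked with HISAT2, SAMtools, featureCounts and DESeq2 on mm10; versions, annotation and strand setting are not stated there. The deposited signal values are gene read counts over a size factor for each library. Divided by the lowest positive value of the column, 100% of values came out whole to within 0.01, and these reads were used for count tests. Symbols, coordinates and exon lengths came from GENCODE M21 (GRCm38), in which 54495 of 54532 rows were found.

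The members and gene lists were chosen with earlier results of these data known. The main test was limma 3.58.1 under R 4.3.3 (log2 of value + 1, trended and robust variance) on the 18410 genes that reached 10 in 3 or more libraries. P-values were two-sided, with Benjamini-Hochberg adjustment over all genes. The pseudocount shrinks the fold changes of low genes. On the recovered reads, edgeR 4.0.16 called 0 genes and DESeq2 1.42.0 called 23. Scripts were tested on simulated data.

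The text names all members, the other Kcns, Kcng and Kcnv genes, Hdac2, the 3 genes with the smallest p of each context list where none passed, and the 2 genes with the nearest profile to each member. Avil, D330025C20Rik and marker genes named at 0 were added after their values were seen. One planned item is not reported here.

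Same-numbered libraries deviated together from their group means (correlations across genes of 0.401, 0.147 and 0.422). All exceed 0.1, so the numbers were taken as pairs; the labels do not state a pairing, and WT 1 with Hdac2 cKO 2 correlated by 0.342. No replicates agreed within sampling noise (chi-square per gene at least 17.3).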

Additional observations from a re-analysis of the deposited data

How the results depend on the processing

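Each of the 7 members was refitted under 21 alternatives, 18 planned and 3 chosen after seeing the data (gene length correction with and without replicate block, and array weights). Of 147 values, 135 kept their direction and stayed short of the threshold, 10 turned in direction and 2 passed it. Members called were 0 except with array weights (2, Kcnb2 and Kcnv1). With the replicate block, which pairs the libraries, limma called 0 members and 0 genes, and DESeq2 called 0 members and 59 genes in place of 23; the block changed no call of a member or of a partner or channel gene named in the comparison, and Hdac2 was called by DESeq2 with it (log2 fold change -2.47) and without it (-2.51).

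Genes called over the whole table, 0 by limma, were 23 by DESeq2, 59 by DESeq2 with replicate block, 5 without both libraries numbered 3 and 567 with array weights. Array weights also called 2 other potassium channel genes, Kcnh7 (0.86) and Kcnc2 (0.67), moved the median of the Kv2 partners to -0.076, turned Ppp3r1 to -0.091, and gave Hdac2 at -2.13 (called). Kcng4 turned to -0.042 by edgeR with TMM scaling, -0.039 with RLE scaling, -0.029 by DESeq2, -0.12 with array weights, -0.23 without both libraries numbered 3, and, leaving out single libraries, ranged from -0.30 to 0.32. Leaving out single libraries, Kcns1 ranged from -0.27 to 0.14, Kcng2 from -0.86 to 0.039 and Kcns2 from -0.15 to 0.27. Values turned without WT 2 for Kcns1 (0.14) and Kcns2 (-0.15), without Hdac2 cKO 2 for Kcns1 (0.075) and Kcns2 (-0.018), without WT 3 for Kcng2 (0.039) and Kcng4 (-0.30), and without Hdac2 cKO 1 for Kcng4 (-0.015). Apart from what leaving libraries out does by construction, the cause was not tested. Of the Kv2 family genes, Kcnv2 had the fewest reads, from 0 to 10 in a library. Kcng1 had 0 reads in WT 3 and 34 or more in each other library. WT 3 held 29107735 reads in all, against 18943595 in WT 2, where Kcng1 had 34. Why Kcng1 was at 0 there was not tested. The power to detect changes of the members' sizes was not tested.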
